A study of Mus musculus with 8 samples.

Results

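Th17 cells are CD4+ helper T cells that make interleukin 17, and 9 of the genes that mark or steer them were followed here through CD4+ T cells of the inflamed mouse knee. They comprised 3 effector cytokines (Il17a, Il17f and Il22), 2 transcription factors (Rora and Batf), 2 cytokine receptors (Il23r and Il1r1) and 2 membrane proteins (Tmem176a and Tmem176b). The members were taken by symbol from a count table of 24421 gene symbols, where all 9 were found, and all 9 were among the 8489 genes that passed the filter on low counts. The mice were male, 16 weeks old and had antigen induced arthritis, and their knees were digested with enzymes before CD4+ T cells were sorted. The 4 libraries labelled Wild type were compared with the 4 labelled Slc7a5 knockout, with no healthy joint in the comparison. The labels give neither the antigen, the deleted part of Slc7a5, the cells in which it was deleted, nor whether each library came from its own animal. Hence p-values rest on the spread among libraries alone, and part of that spread may be technical. The comparison asks how loss of Slc7a5, a transporter of large neutral amino acids, alters the transcripts of joint T cells.

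As background, Th17 cells arise when naive T cells meet TGF-beta and interleukin 6, and interleukin 23 and interleukin 1 beta then sustain them. BATF, which pairs with JUN proteins and IRF4, opens the loci of the program, and nuclear receptors of the ROR family, among them the product of Rora, drive the cytokine genes. Interleukins 17A and 17F act on fibroblasts and epithelium to recruit neutrophils, and in arthritis they are linked to erosion of cartilage and bone. In bulk samples such as these, fewer Th17 cells and less RNA per Th17 cell cannot be told apart.

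The sequences upstream of 3 members are shown because Rora and Batf encode factors that bind DNA and because these members hold the letters such factors are known for. The promoter windows came from RefSeq (build GRCm38.p6), which held all 9 members. Each window was searched on both strands over the 250 bases before the annotated start for TATAAA (the TATA box), AGGTCA (the half-site of ROR receptors) and TGANTCA. The last is a loose form of the AP-1 site of JUN and BATF dimers, in which N stands for any base. The 3 motifs share no letters in the stretches below. TATAAA lay before the 3 cytokine genes Il17a, Il17f and Il22 and in no window of the other 6 members. Over all 32851 windows, 12.4% held it. AGGTCA lay before Il17a, Il17f and Il23r, against 14% of all windows, and TGANTCA before Il17a, against 6.75%. In the lines that follow, capitals mark these matches. Each stretch runs 5′ to 3′ and ends at the base before the start of transcription in RefSeq, and that of Il17f was shortened to 224 bases so that no annotated exon is included. The RefSeq start of Il17f lies inside the longer span given for that gene below, which is GENCODE's.
Il17a, chr1:20730655-20730904, plus strand: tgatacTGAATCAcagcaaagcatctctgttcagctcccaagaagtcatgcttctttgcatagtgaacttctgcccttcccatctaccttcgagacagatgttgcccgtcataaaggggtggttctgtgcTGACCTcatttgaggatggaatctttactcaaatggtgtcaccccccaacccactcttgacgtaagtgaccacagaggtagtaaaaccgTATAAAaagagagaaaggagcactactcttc
Il17f, chr1:20784271-20784494, minus strand: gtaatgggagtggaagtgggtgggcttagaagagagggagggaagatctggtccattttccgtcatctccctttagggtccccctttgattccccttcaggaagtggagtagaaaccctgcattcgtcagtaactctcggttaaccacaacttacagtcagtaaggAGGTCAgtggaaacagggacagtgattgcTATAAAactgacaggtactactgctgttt
Il23r, chr6:67491856-67492105, minus strand: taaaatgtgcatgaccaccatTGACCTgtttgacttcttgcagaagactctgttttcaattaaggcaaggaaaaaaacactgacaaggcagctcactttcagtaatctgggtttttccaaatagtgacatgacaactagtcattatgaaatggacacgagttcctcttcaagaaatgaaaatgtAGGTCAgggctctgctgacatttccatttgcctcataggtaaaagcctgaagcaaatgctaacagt
The TATAAA of Il17a began 31 bases before the start and that of Il17f 29 bases before it. The half-site began 120 bases before the start of Il17a and 58 before that of Il17f, while Il23r held a pair, at 229 and 66 bases. The AP-1 match of Il17a, TGAATCA, is a match to the loose form only and began 244 bases before its start. A match describes letters only and shows no binding.

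Depth and library quality bear on all values. The libraries held 18837650 to 36436923 counts, with 7957 to 10139 genes detected in wild type and 5221 to 9358 in knockout. Knockout replicate 4 stood apart, with 43.7% of tested genes at 0 and Spearman correlations across genes of 0.489 to 0.544 with the others, which ran from 0.578 to 0.826 among themselves. Of the wild-type libraries, replicate 4 had the fewest counts (21873678) and the fewest detected genes (7957). In it 15.29% of tested genes were at 0, against 2.863% to 3.452% in wild-type replicates 1 to 3. The counts of Slc7a5 were 385, 194, 410 and 0 across the wild-type replicates 1 to 4 and 0 in every knockout library, so it does not check the label of wild-type replicate 4. The T cell label was borne out in all 8 libraries by Cd3e, a receptor chain, at 407 to 554 CPM in wild type and 330.2 to 382 CPM in knockout. Cd4, by contrast, was at 343.6 to 570.3 CPM in 7 libraries and at 1.78 CPM in knockout replicate 4. CPM here is the count of a gene per 1000000 counts of the library, with library sizes scaled by TMM, edgeR's correction for composition.

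Of the effector cytokines, Il17f and Il22 were plentiful and Il17a was scarcer. None differed between the genotypes beyond the spread of the libraries, and all were led in wild type by replicate 4. Il17f (chromosome 1, 20777146 to 20790617, GRCm38), whose product forms dimers with itself and with interleukin 17A, was at 868.2, 501.6, 514.0 and 2975 CPM in wild-type replicates 1 to 4. In knockout it was at 970.1, 2622, 1485 and 773.5 CPM. Replicate 4 of wild type and replicate 2 of knockout were high, the other wild-type libraries were low, and the groups overlapped. Wild type averaged 1215 ± 1186 CPM and knockout 1463 ± 829.3 CPM (SD, n = 4 each). The log2 fold change, knockout over wild type, was 0.27 with an SE of 0.60. The adjusted p was 0.99995 for each of the 9 members (edgeR's quasi-likelihood test, Benjamini-Hochberg) and is not repeated for them below. In that test 0 of 8489 genes passed at an adjusted p under 0.05 (0%), and 326 genes (3.84%) had an unadjusted p under 0.05, so a member that does not pass is in the company of all other genes. DESeq2, run without the filter on 12849 genes, called 387 (61 higher and 326 lower). On the 8489 filtered genes limma voom called 4, and none of the 9 members was called by either.

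Il22 (chromosome 10, 118204942 to 118210047) encodes interleukin 22, which acts on epithelium and stroma rather than on blood cells. It was at 354.5, 340.4, 91.80 and 942.4 CPM in the wild-type libraries and at 388.3, 760.7, 774.1 and 330.5 CPM in knockout. Wild-type replicate 4 was again the highest of the 8, wild-type replicate 3 the lowest, and the groups overlapped. The means were 432.3 ± 360.9 and 563.4 ± 236.8 CPM (SD, n = 4 each; log2 fold change 0.38, SE 0.57). Reads may be shared with Iltifb, a near-identical copy, which had 0.964% to 6.4% of the counts of Il22 in the 8 libraries.

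Il17a (chromosome 1, 20730905 to 20734496), the cytokine that names the lineage, was much scarcer than its neighbour Il17f. It was at 107.1, 30.56, 24.62 and 201.8 CPM in wild-type replicates 1 to 4 and at 38.92, 33.84, 62.49 and 23.87 CPM in knockout. Replicates 1 and 4 of wild type were high, while the other wild-type libraries lay within the range of knockout. The means were 91.01 ± 82.84 and 39.78 ± 16.38 CPM (SD, n = 4 each; log2 fold change −1.19, SE 0.98). The estimate of Il17a was thus below 0 and those of Il17f and Il22 above 0, and none of the 3 passed the test.

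**Figure D1:**
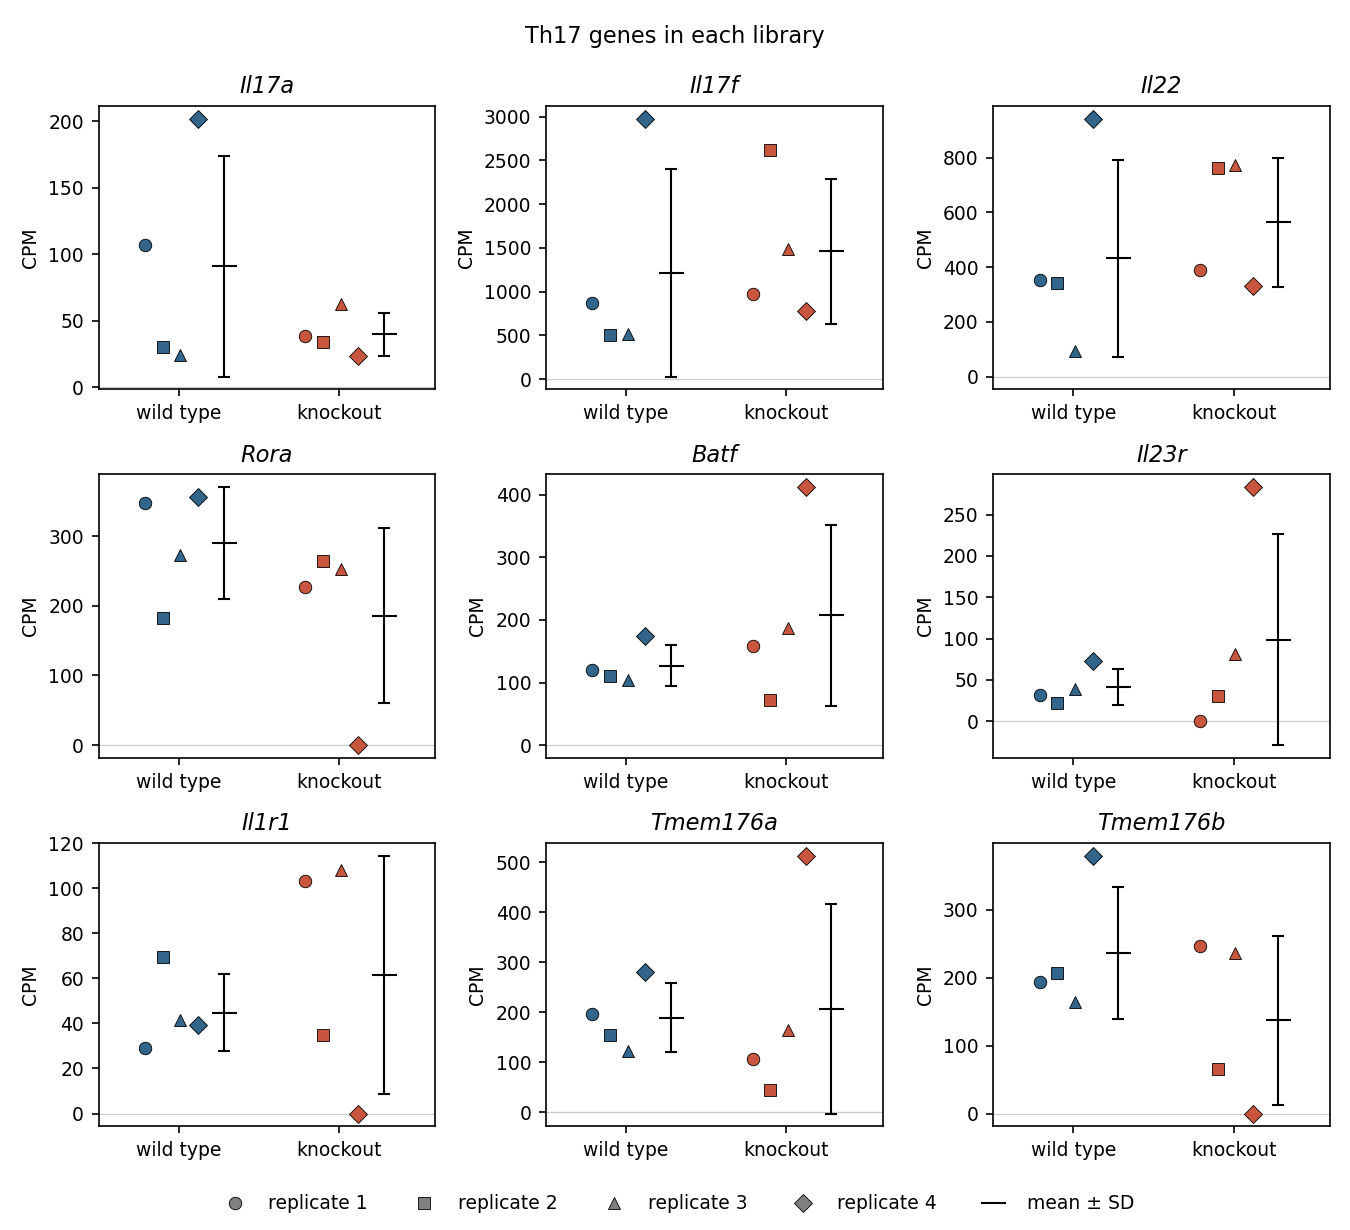
CPM (linear axis, 1 panel per gene with its own scale) of the 9 Th17 genes in each library, blue for wild type and red for knockout, with the marker shape giving the replicate and black bars the mean ± SD of 4 libraries. Wild-type replicate 4 (blue diamond) is the highest of all 8 libraries for Il17a, Il17f, Il22, Rora and Tmem176b, and knockout replicate 4 (red diamond) is at or near 0 for Rora, Il1r1 and Tmem176b and the highest for Batf, Il23r and Tmem176a.

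Wild-type replicate 4 carried the wild-type means of the cytokines. An even spread would give each library 25% of its group's summed CPM. Wild-type replicate 4 gave 55.4% for Il17a, 61.2% for Il17f and 54.5% for Il22. Without it the wild-type mean of Il17f was 627.9 ± 208.1 CPM in place of 1215 (SD, n = 3), and the ratio of the knockout to the wild-type mean was 2.33 in place of 1.20. For Il22 the wild-type mean was 262.2 ± 147.8 CPM in place of 432.3, and the ratio 2.15 in place of 1.30. For Il17a the mean was 54.10 ± 46.01 CPM in place of 91.01, and the ratio 0.735 in place of 0.437. With replicate 4 left out of the edgeR fit, the log2 fold change was 1.22 for Il17f (SE 0.41, unadjusted p = 0.0123, adjusted p = 0.507), 1.11 for Il22 (SE 0.49, unadjusted p = 0.0466, adjusted p = 0.99987) and −0.44 for Il17a (SE 1.30, adjusted p = 0.99987). None passed with or without that library. Il17f also turned sign when knockout replicate 2 (−0.20) or wild-type replicate 2 (−0.01) was left out.

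The same counts over all tested genes give the background. The wild-type mean fell by over 1.5 times without replicate 4 for 3 of the 9 members, the 3 cytokines, and for 607 of 8489 tested genes (7.15%). The sign of the difference between the mean CPM of the genotypes turned without that library for 0 of 9 members and for 9.74% of tested genes. That library had the highest CPM of all 8 for 5 members and for 14.3% of tested genes. Among the 4 wild-type libraries it was the highest for 8 members, all but Il1r1, and for 27.9% of tested genes. No test was made of these counts. This library was singled out with earlier results of these data known, so nothing is read from the counts beside the background. Of the 37 tested genes of the wider pathway, 12 were highest of all 8 libraries and 20 highest of the wild-type libraries in replicate 4.

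The members can also be added up. Over all 9, wild-type replicates 1 to 4 had 2249, 1618, 1375 and 5423 CPM and the knockout libraries 2239, 3928, 3352 and 2337 CPM. Wild-type replicate 4 thus held 50.9% of the wild-type sum. The means were 2666 ± 1875 and 2964 ± 816.2 CPM (SD, n = 4 each), and 1747 ± 451.1 CPM in wild type without replicate 4 (n = 3). The log2 ratio of the means, knockout over wild type, was 0.15, and 0.76 without wild-type replicate 4. Leaving out knockout replicate 2 gave −0.01, and leaving out replicate 2 or 3 of wild type gave −0.02 or −0.06, so its sign rested on single libraries. Il17f alone made up 31.0% to 66.8% of the sum in the 8 libraries, and the 6 members other than cytokines summed to 928.3 ± 263.7 and 898.0 ± 298.7 CPM.

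**Figure D2:**
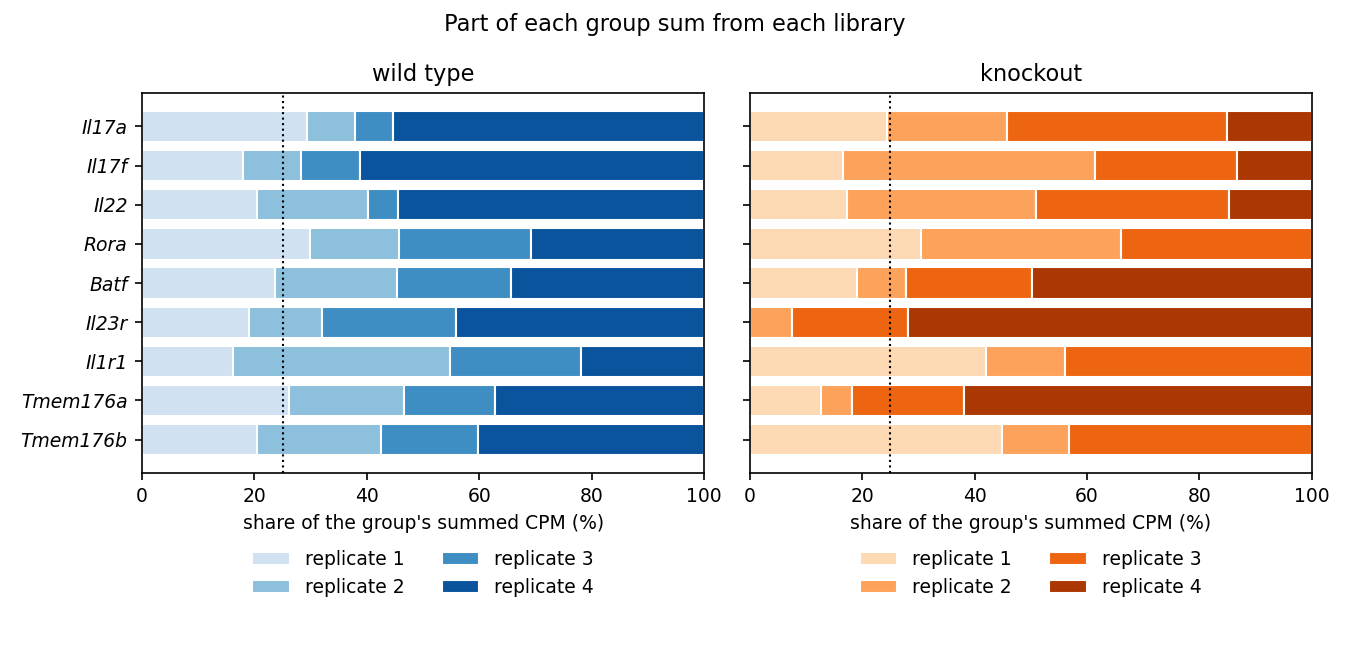
Share of each group's summed CPM (%) that each of the 4 libraries gave, for wild type on the left and knockout on the right, 1 bar per gene, with the dotted line at the 25% of an even spread. Wild-type replicate 4 (darkest blue) takes 54.5% to 61.2% of the sum for Il17a, Il17f and Il22, and knockout replicate 4 (darkest orange) takes 71.8% for Il23r and 62.0% for Tmem176a but nothing visible for Rora, Il1r1 and Tmem176b.

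Within a library, Il17f and Il17a can be set against each other without any scaling. This ratio was chosen after the values were seen. Il17f had 8.10, 16.4, 20.9 and 14.7 times the counts of Il17a in wild-type replicates 1 to 4 and 24.9, 77.5, 23.8 and 32.4 times in knockout. The groups did not overlap, with wild-type replicate 3 and knockout replicate 3 closest to each other and knockout replicate 2 far above the rest. The geometric means were 14.2 in wild type and 34.9 in knockout, and 26.8 in knockout without replicate 2. This was the only pair without overlap among the 15 of 36 member pairs in which no library was at 0. The CPM of 6.14% of tested genes, taken singly, did not overlap between the groups. The same share over ratios of gene pairs was not computed, so nothing is read from the lack of overlap. No test of the ratio was made. The ratio of Il22 to Il17a counts was 3.31, 11.1, 3.73 and 4.67 in wild type and 9.98, 22.5, 12.4 and 13.8 in knockout, where wild-type replicate 2 reached into the range of knockout. The longest transcripts of Il17f and Il17a had GC contents of 44.6% and 42.4%.

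**Figure D3:**
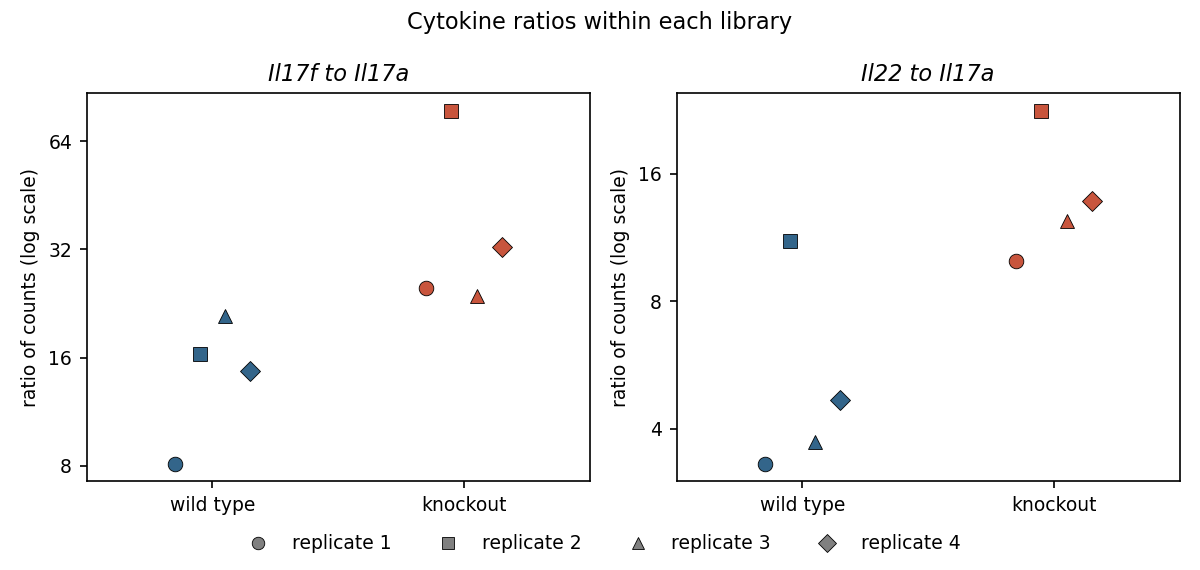
Ratio of the counts of Il17f (left) and of Il22 (right) to those of Il17a in each library, on log axes, blue for wild type and red for knockout, with the marker shape giving the replicate. For Il17f the 4 wild-type ratios lie between 8.10 and 20.9 and the 4 knockout ratios between 23.8 and 77.5, while for Il22 wild-type replicate 2 (11.1) lies within the knockout range.

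Of the transcription factors, Rora was at 182.9 to 356.3 CPM in 7 libraries and was all but missing from knockout replicate 4. Rora (chromosome 9, 68653786 to 69388246), a nuclear receptor that acts beside its family members in Th17 cells, was at 346.9, 182.9, 273.4 and 356.3 CPM in wild type. In knockout it was at 227.3, 264.0, 252.9 and 0.104 CPM, the last from 2 counts. The 3 other knockout libraries lay within the wild-type range. The means were 289.9 ± 80.37 and 186.1 ± 124.9 CPM (SD, n = 4 each; log2 fold change −0.64, SE 1.18). Without knockout replicate 4 the knockout mean was 248.1 ± 18.80 CPM (n = 3) and the log2 fold change −0.24 (SE 0.28).

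Batf (chromosome 12, 85686669 to 85709087), the AP-1 factor needed for Th17 differentiation, showed the opposite pull of the same library. It was at 120.6, 109.7, 103.9 and 174.5 CPM in the wild-type libraries and at 158.2, 71.90, 186.8 and 412.2 CPM in knockout. Knockout replicate 4 was the highest of the 8 libraries and knockout replicate 2 the lowest. The means were 127.2 ± 32.30 and 207.3 ± 145.1 CPM (SD, n = 4 each; log2 fold change 0.70, SE 0.51). Without knockout replicate 4 the log2 fold change of Batf was 0.12 (SE 0.39), and the ratio of the means was 1.09 in place of 1.63. Its longest transcript had a GC content of 56.6%, above 88.8% of tested genes, and with an offset for GC content its log2 fold change was 1.76 (SE 0.73, unadjusted p = 0.0313, adjusted p = 0.99975 in edgeR).

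Among the receptors, the estimate of Il23r rested on knockout replicate 4. Il23r (chromosome 6, 67422932 to 67491855) encodes the subunit that lets Th17 cells respond to interleukin 23. It was at 31.49, 21.46, 39.55 and 73.02 CPM in the wild-type libraries and at 0, 30.06, 81.29 and 283.3 CPM in knockout. Knockout replicate 4 gave 71.8% of the knockout sum, and the 0 counts of knockout replicate 1 allow up to 0.126 CPM (3 counts, counting error only). The means were 41.38 ± 22.35 and 98.66 ± 127.6 CPM (SD, n = 4 each; log2 fold change 1.25, SE 1.54). Without knockout replicate 4 the knockout mean of Il23r was 37.12 ± 41.10 CPM (n = 3) and the log2 fold change turned to −0.17 (SE 1.59).

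Il1r1 (chromosome 1, 40225080 to 40317257), the receptor through which interleukin 1 sustains Th17 cells, was at 28.96, 69.32, 41.67 and 39.38 CPM in wild type. In knockout it was at 103.3, 35.01, 107.9 and 0 CPM, and the last allows up to 0.157 CPM. Knockout replicates 1 and 3 were above all wild-type libraries and knockout replicate 4 below them. The means were 44.83 ± 17.24 and 61.57 ± 52.88 CPM (SD, n = 4 each; log2 fold change 0.46, SE 1.54), and the log2 fold change of Il1r1 was 0.86 (SE 0.61) without knockout replicate 4, 0.09 (SE 1.82) without knockout replicate 1 and 0.04 (SE 1.84) without knockout replicate 3. It was the only member of which wild-type replicate 4 was not the highest wild-type library.

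The neighbours Tmem176a and Tmem176b, which encode related membrane proteins of intracellular vesicles found in Th17 cells and in dendritic cells, came apart in knockout replicate 4. They lie on opposite strands of chromosome 6, at 48840919 to 48847071 and at 48833818 to 48841496, and share 578 bases (48840919 to 48841496). The sources used here give no strand setting of the counting, so reads from the shared bases cannot be told apart. Tmem176a was at 197.2, 155.3, 121.7 and 281.4 CPM in the wild-type libraries and at 105.7, 44.62, 165.0 and 513.4 CPM in knockout. Tmem176b was at 193.9, 207.2, 163.9 and 379.7 CPM in the wild-type libraries and at 246.9, 65.01, 237.1 and 0 CPM in knockout. Knockout replicate 4 thus held 9829 counts of Tmem176a and 0 of its neighbour, which allows up to 0.157 CPM, whereas in the other 7 libraries Tmem176a had 0.428 to 1.02 times the counts of Tmem176b.

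For Tmem176a the means were 188.9 ± 68.98 and 207.2 ± 210.0 CPM (SD, n = 4 each; log2 fold change 0.13, SE 0.63). For Tmem176b they were 236.2 ± 97.37 and 137.3 ± 123.9 CPM (log2 fold change −0.78, SE 1.34, n = 4 each). Without knockout replicate 4 the log2 fold change of Tmem176a turned to −0.86 (SE 0.47, unadjusted p = 0.0984) and that of Tmem176b was −0.38 (SE 0.48). The estimate of Tmem176a also turned when wild-type replicate 3 was left out (−0.02) and with upper-quartile scaling (−0.017). In knockout replicate 2, which had the second fewest detected genes, both were the lowest among the 7 libraries other than knockout replicate 4.

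**Figure D4:**
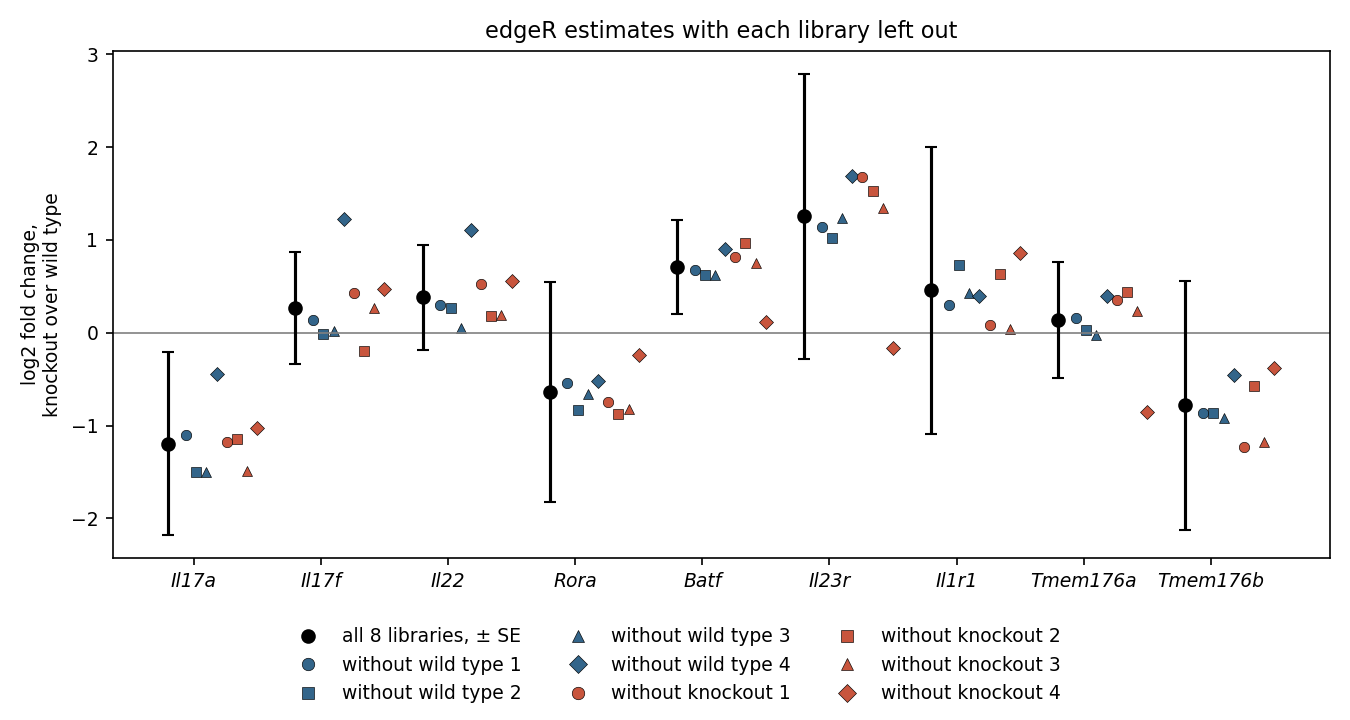
Log2 fold change, knockout over wild type, of each Th17 gene in edgeR with all 8 libraries (black, ± SE) and with each library left out (blue for a wild-type and red for a knockout library, the marker shape giving its replicate). Leaving out wild-type replicate 4 (blue diamond) moves Il17f from 0.27 to 1.22 and Il22 from 0.38 to 1.11, and leaving out knockout replicate 4 (red diamond) turns Il23r to −0.17 and Tmem176a to −0.86.

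Seen together, knockout replicate 4 had at most 3 counts of Rora, Il1r1 and Tmem176b and the highest level of Batf, Il23r and Tmem176a. Of the 6 members with a mean of at least 100 CPM in the other 7 libraries, 2 had at most 3 counts there, Rora and Tmem176b. Of all 1908 such genes, 14.5% did. The knockout mean fell by over 1.5 times without some library for 2 of 9 members, Il23r and Tmem176a, against 57% of tested genes. The sign of the difference in mean CPM turned without some library for 3 members, Il17f, Il23r and Tmem176a, against 40.7%. With 9 genes, nothing can be read from these counts beside the background. The CPM of the 2 genotypes did not overlap for 0 of the 9 members, against 6.14% of tested genes. The median log2 fold change of the members was 0.27 (6 above and 3 below 0), and that of all tested genes was −0.12, with 45% above 0.

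Per kilobase of annotated exon, which allows genes to be compared, the wild-type levels ran from Il17f (601 ± 587 CPM per kb) through Il22 (389 ± 325), Tmem176b (99.6 ± 41.1), Batf (90.5 ± 23.0), Il17a (77.7 ± 70.7), Tmem176a (49.6 ± 18.1), Rora (22.2 ± 6.15) and Il23r (16.6 ± 8.98) to Il1r1 (7.05 ± 2.71; SD, n = 4). The ranges of neighbours in that order overlapped, except that all wild-type libraries had more Tmem176a (31.9 to 73.9) than Rora (14 to 27.3). Taken library by library, Il22 was also above Tmem176b in each wild-type library (319, 307, 82.7 and 849 against 81.8, 87.4, 69.1 and 160). In knockout Il17f (724 ± 410 CPM per kb) and Il22 (508 ± 213) were again the highest, and Il17a was at 34 ± 14 CPM per kb. The length used is the union of all annotated exons, 13.07 kb for Rora, so genes with long alternative ends are set too low.

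The genes whose profile over the 8 libraries lay closest to a member were seldom known Th17 genes. Likeness was the mean absolute difference of log2 CPM after each gene was centred on its own mean, among 5739 genes of at least 20 CPM. Closest to Il17a were Casp4 and Wdr26 (differences of 0.36 and 0.388), to Il17f Rab18 and Tm9sf1 (0.353 and 0.363), and to Il22 Polr3c and Il17f (0.386 and 0.426), the last being the only member on these lists. Closest to Rora were Eif4b and Pycard (0.152 and 0.165), to Batf Il7r and Cltc (0.192 and 0.244), and to Il23r Tmem175 and Stx8 (0.332 and 0.465). For Il1r1 they were Rlf and Dnaja2 (0.198 and 0.215), for Tmem176a Lpar6 and Klhl6 (0.179 and 0.20), and for Tmem176b Srpr and Ccdc47 (0.228 and 0.256). The median over the compared genes was 1.80 to 2.67, and near profiles are to be found among so many genes and so few libraries.

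The wider pathway did not pass either. Of 38 further genes, 37 were tested (Il1rap was not), 0 passed in either direction, the estimate was above 0 for 13 and below 0 for 24, and their median on the log2 scale was −0.29. At an unadjusted p under 0.05, 1 was higher and 2 were lower, where 1.87% and 1.97% of all tested genes were. The adjusted p in edgeR was 0.99995 for each pathway gene named below unless another value is given. CPM did not overlap between the genotypes for 4 of the 37, Tgfbr1, Tgfbr2, Bhlhe40 and Tnf, against 6.14% of all tested genes.

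Among receptors of the inducing cytokines, 2 of 7 estimates were higher and 5 lower. Tgfbr2, the binding chain of the TGF-beta receptor, was at 121.8, 77.60, 58.04 and 59.20 CPM in the wild-type libraries and at 27.97, 13.95, 37.32 and 0.104 CPM in the knockout libraries (log2 fold change −2.00, SE 1.40, n = 4 each). All knockout libraries lay below all wild-type ones. Tgfbr1, also without overlap, went the other way (log2 fold change 2.225, SE 2.186). It was at 0, 16.33, 19.23 and 0 CPM in the wild-type libraries and at 66.93, 20.84, 53.45 and 25.07 CPM in knockout. Il21r, the receptor of interleukin 21, was at 244.8 CPM in wild-type replicate 4 and at 56.81 to 69.58 CPM in the other wild-type libraries, and at 60.36, 31.39, 40.71 and 0.0522 CPM in knockout. Wild-type replicate 4 was the library apart here too.

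Among transcription factors, 3 of 11 estimates were higher and 8 lower, and the lower Bhlhe40 and Junb had unadjusted p-values under 0.05. Bhlhe40, which promotes cytokine output of helper T cells, was at 1653, 2203, 1540 and 2648 CPM in the wild-type libraries and at 1538, 861.2, 1282 and 1288 CPM in the knockout libraries (log2 fold change −0.69, SE 0.24, adjusted p = 0.703 in edgeR, n = 4 each). The groups did not overlap, with wild-type replicate 3 and knockout replicate 1 nearly level. Junb, a partner of BATF in AP-1 dimers, was at 1670, 1402, 2089 and 3488 CPM in the wild-type libraries and at 1552, 306.6, 741.5 and 1158 CPM in knockout (−1.20, SE 0.44, adjusted p = 0.914 in edgeR). Wild-type replicate 4 was the highest library for both genes. With that library left out, the log2 fold change was −0.87 for Junb (SE 0.43, unadjusted p = 0.0692 in edgeR). For Bhlhe40 it was −0.53 (SE 0.23, unadjusted p = 0.045 in edgeR). For Junb the groups overlapped through knockout replicate 1. With the offset for GC content the log2 fold changes shrank to −0.22 for Bhlhe40 (SE 0.40, unadjusted p = 0.584 in edgeR) and −0.42 for Junb (SE 0.46, unadjusted p = 0.383 in edgeR).

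Of 5 further effector cytokines, 1 had a higher and 4 a lower estimate. Csf2, which encodes the growth factor GM-CSF of pathogenic T cells, was at 38.33, 187.7, 141.4 and 61.54 CPM in the wild-type libraries and at 31.00, 11.84, 74.64 and 67.64 CPM in knockout, with overlap (log2 fold change −1.21, SE 0.88). Tnf, tumour necrosis factor, was at 37.44, 115.9, 43.92 and 64.41 CPM and at 24.89, 0.0556, 29.71 and 0 CPM (−2.26, SE 1.91). Both knockout libraries without appreciable Tnf counts, replicates 2 and 4, were those with the fewest detected genes.

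Of the surface proteins and enzymes, 4 of 8 estimates were higher. Ccr2, a chemokine receptor of inflammatory T cells and monocytes, was at 595.4 to 952.1 CPM in the wild-type libraries and at 880.7, 1686, 1117 and 560.5 CPM in the knockout libraries (log2 fold change 0.57, SE 0.31, n = 4 each). Furin, a protease that T cells use to process TGF-beta, was at 116.7 to 226.3 CPM in the wild-type libraries and at 104.3, 117.5, 70.66 and 0.522 CPM in knockout (−1.16, SE 0.98). Of the factors that restrain the lineage, 3 of 6 estimates were higher. Ets1, whose loss favours Th17 cells, was at 3024, 3357, 3103 and 4639 CPM in the wild-type libraries and at 4937, 7006, 5437 and 3479 CPM in knockout. Its log2 fold change was 0.56 (SE 0.22, adjusted p = 0.997 in edgeR, n = 4 each), and it passed only in limma voom with library quality weights (0.74, adjusted p = 0.0333). Tbx21, the Th1 regulator, was at 31.44, 94.90, 127.3 and 15.89 CPM in the wild-type libraries and at 27.04, 0.111, 0 and 0 CPM in knockout (−3.31, SE 2.30), and wild-type replicate 4, the highest for the Th17 cytokines, was its lowest wild-type library. Without knockout replicate 1 the log2 fold change of Tbx21 was −10.71 (SE 2.64, unadjusted p = 0.00197, adjusted p = 0.476 in edgeR), a fitted value set against 3 libraries at or under 0.111 CPM.

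**Figure D5:**
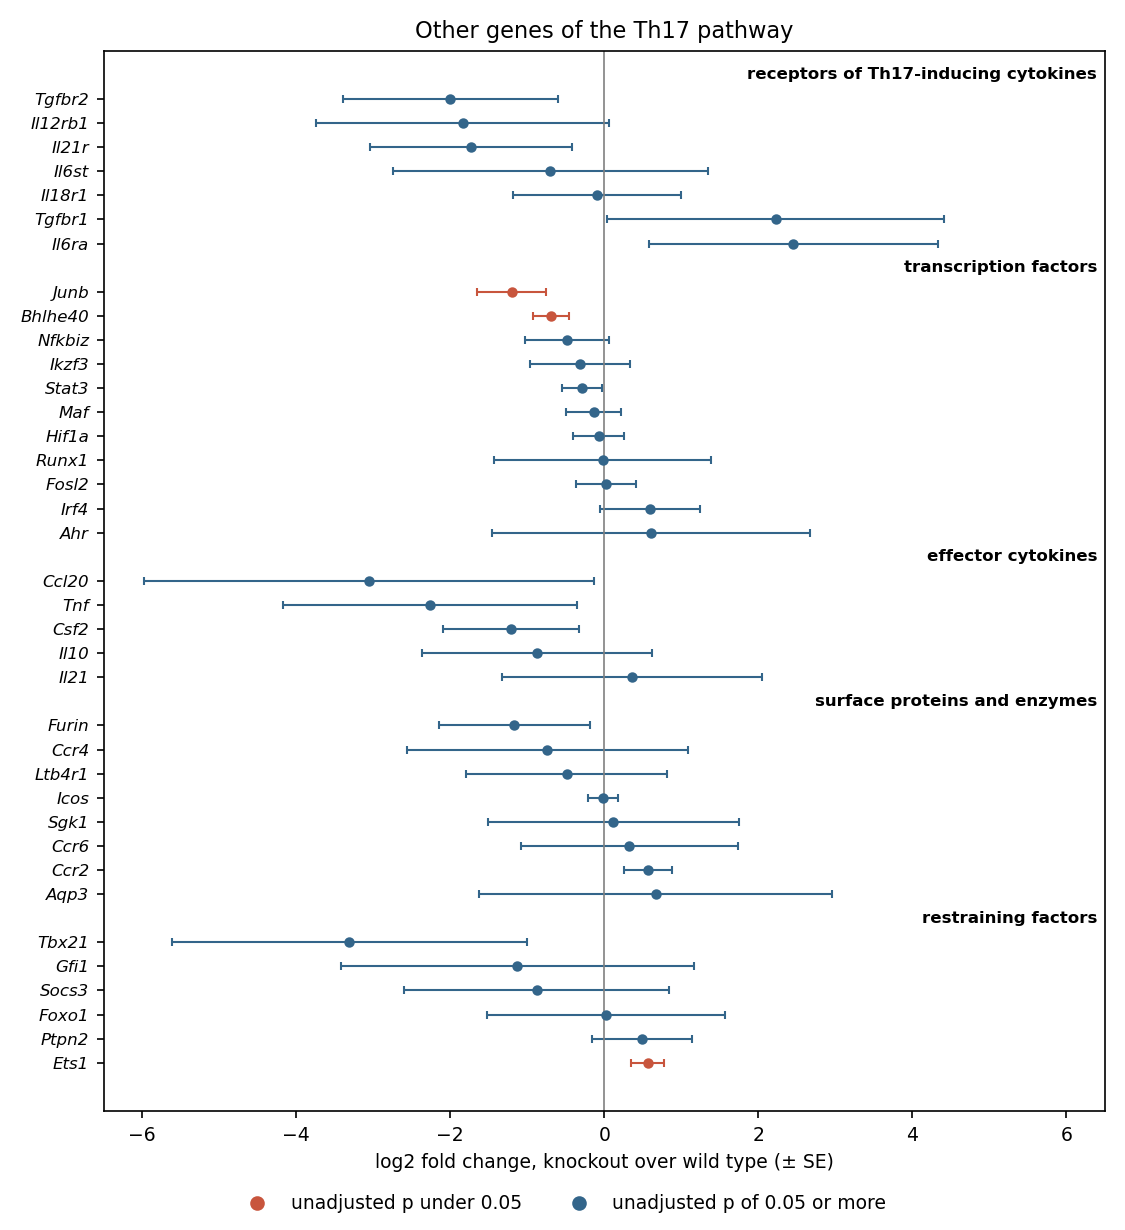
Log2 fold change, knockout over wild type, with its SE, from edgeR, for the 37 tested genes of the wider Th17 pathway in 5 groups, in red where the unadjusted p was under 0.05. The 3 red genes are Junb (−1.20), Bhlhe40 (−0.69) and Ets1 (0.56), and no gene passed after adjustment. With the offset for GC content Junb was at −0.42, Bhlhe40 at −0.22 and Ets1 at 0.86. Without wild-type replicate 4 Junb was at −0.87, Bhlhe40 at −0.53 and Ets1 at 0.72.

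Other cells can make some of these transcripts, so their markers are given beside them. The 7 T cell markers found of 9 listed summed to 6390 to 9004 CPM in wild type, with the highest value in replicate 4, and to 5037 to 7245 CPM in knockout. Among them Cd3e and Cd5 were lower in every knockout library than in any wild-type library, while Cd3d, Cd3g, Cd4, Cd2 and Lck overlapped. Of all tested genes, 6.14% did not overlap in either direction. Of 8 gamma-delta T cell markers 3 were found among the symbols, and they summed to 0 to 27.96 and 0 to 16.37 CPM, with 0 in wild-type replicate 4. The listed receptor genes Trdc, Trgc1, Trgc2, Trgc4 and Trdv4 were not found, so these sums cannot show whether such cells were present. The 6 markers of innate lymphoid and natural killer cells summed to 25.54 to 125.7 and 42.17 to 171.0 CPM. In that list Ncr1 and Eomes were at 0 throughout, and the highest wild-type value was again in replicate 4, where Fcer1g was at 58.54, Kit at 55.18, Tyrobp at 12.01 and Klrb1c at 0 CPM. The 19 markers of monocytes, macrophages and dendritic cells summed to 1261 to 3097 CPM in wild type and to 8741, 10070, 1992 and 11070 CPM in knockout replicates 1 to 4. Nearly all of it was Cd74, H2-Ab1, H2-Aa and H2-Eb1, the MHC class II genes, while the other 15 markers summed to 97.1 to 167 and 109 to 239 CPM and Adgre1, a macrophage marker, was at 0 throughout. Knockout replicate 2 had 10070 CPM of these markers and the lowest Tmem176a of all 8 libraries, and knockout replicate 4 had the most of both. In wild-type replicate 4 the 19 markers stood at 1311 CPM. The ranges in wild type and knockout were 0 to 23.19 and 0 to 123.0 CPM for CD8 T cells, 0 to 55.25 and 0 to 35.53 CPM for neutrophils and 0 to 8.13 and 0 to 39.59 CPM for B cells. They were 0 to 90.50 and 0.0522 to 30.47 CPM for synovial fibroblasts and 0 to 7.53 and 0 to 0.0398 CPM for endothelial cells. The part of such cells in the values of the members was not tested.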

How the data were processed

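Joint CD4+ T cells of 8 libraries were profiled by RNA-seq with the NEBNext low-input chemistry, per the labels' protocols. The deposited table holds raw counts by gene symbol, as whole numbers without scaling. The mm10 build (with the coordinates of GRCm38), featureCounts, HISAT2 2.1.0 and edgeR 3.28.1 are listed per the submitters' processing notes, without role or order. The sources used here name no annotation or strand setting, which matters where genes overlap.

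From these counts, in R 4.3.3, genes were filtered with filterByExpr of edgeR 4.0.16 (minimum count 10, minimum total 15), scaled by TMM and tested with its quasi-likelihood test (robust, genotype alone, all 8 libraries, Benjamini-Hochberg adjustment). Each SE is the size of the estimate divided by the root of its F statistic. Depth was 18837650 to 36436923 counts, and floors of 3 counts cover counting error only. Positions and exon lengths came from GENCODE M21. GC content was known for 96.6% of tested genes.

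The members, the lists and the rules were chosen with earlier results of these data known. Named were the members, Slc7a5, Cd4, Cd3e, the 2 genes of smallest p in each of 5 pathway lists, the 2 nearest profiles of each member and the 4 highest genes of each of 9 marker lists, of which the text gives those that bear on a result. The alternatives were no filter, a mean CPM of at least 50, 3 other scalings, DESeq2 1.42.0, limma 3.58.1 (voom, with and without quality weights), 2 other edgeR settings, a replicate block and left-out libraries. A GC offset (loess, span 0.75), the cytokine ratio and leaving out knockout replicates 2 and 4 were added after the data were seen.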

Additional observations from a re-analysis of the deposited data

Results flagged for a closer look

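In a group of 4, a library is given here where its gap to the nearest other library took up more of the group's range than Dixon's 95% critical value allows. Of 69 groups examined 12 did, where chance gives about 1 in 20 for normally distributed values. That rate does not hold for groups of values at or near 0, such as the sums of scarce markers, where 1 library with counts exceeds the value by construction. Il17f stood at 2975 CPM in wild-type replicate 4, against 501.6 to 868.2 CPM in the other wild-type libraries. Il21r stood at 244.8 CPM in the same library, against 56.81 to 69.58 CPM, and the summed synovial fibroblast markers at 90.50 CPM, against 0 to 13.65 CPM. That fibroblast sum was Dcn at 64.5, Prg4 at 25.43 and Col3a1 at 0.574 CPM, while Col1a1, Col1a2, Lum and Pdgfra were at 0 there. Rora stood at 0.104 CPM in knockout replicate 4, against 227.3 to 264.0 CPM, and the CD8 T cell markers there at 123.0 CPM, against 0 to 7.56 CPM. That CD8 value was Cd8b1 alone, with Cd8a at 0 CPM in the same library. The ratio of Il17f to Il17a counts was 77.5 in knockout replicate 2, against 23.8 to 32.4 in the other knockout libraries. Tbx21 was at 27.04 CPM in knockout replicate 1, against 0 to 0.111 CPM. The monocyte, macrophage and dendritic cell markers summed to 3097 CPM in wild-type replicate 1, against 1261 to 1370 CPM. Scarce markers account for the remaining 4. They were gamma-delta T cell markers at 27.96 CPM in wild-type replicate 1 and at 16.37 CPM in knockout replicate 3, and, also in knockout replicate 3, neutrophil markers at 35.53 CPM and endothelial markers at 0.0398 CPM. The gamma-delta values were Cd163l1 alone in wild-type replicate 1 and Blk alone in knockout replicate 3.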

How the results depend on the processing

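With 4 libraries a group and abundant transcripts at 0 in some of them, single libraries limit what can be said of these genes. No gene passed in edgeR under any of the filters, scalings, left-out libraries or the GC offset, with 0 calls each, whereas DESeq2 called 387 genes, limma voom 4 and voom with quality weights 4. DESeq2 was run on 12849 genes without the filter, and edgeR without a filter called 0 of as many. No member passed under any alternative. The sign turned for Tmem176a with a mean CPM of at least 50 (−0.0037), upper-quartile scaling (−0.017), limma voom (−0.28), voom with quality weights (−0.38), without both replicates 4 (−0.61) and without knockout replicates 2 and 4 (−0.48). It turned for Il23r in voom (−1.78, and −2.70 with quality weights) and without knockout replicates 2 and 4 (−0.023), for Il1r1 in voom (−1.92), for Il17a in voom with quality weights (0.11) and for Tmem176b without knockout replicates 2 and 4 (0.038). With 1 library left out in turn, the log2 fold change ran from −0.20 to 1.22 for Il17f, from −0.86 to 0.44 for Tmem176a and from −0.17 to 1.68 for Il23r. The log2 ratio of the summed members ran from −0.06 to 0.76, and that of Il17f to Il17a from 0.91 to 1.48. Il22, Rora and Batf kept their sign in all 22 alternatives run for each, but not their size, which ran from 0.05 to 1.36 for Il22, from −2.49 (limma voom) to −0.13 for Rora and from 0.12 to 1.76 (GC offset) for Batf. Quality weights in voom gave 1.09 for Il17f and 1.36 for Il22, and the GC offset 1.05 for Tmem176a and 1.96 for Il23r. Same-numbered libraries did not deviate together (correlations of −0.02 to 0.05), so the numbers are not taken to pair them; the replicate block called 0 genes and turned Il1r1 (−0.40) and Tmem176a (−0.34), and 1 of 4 wild-type libraries correlated best with its own number. The cause of these turns was not tested.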
